A study of Arabidopsis thaliana with 21 samples.

Results

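The genes described here are 205 genes of Arabidopsis thaliana Col-0 whose transcripts were low in cold acclimated (CA) rosettes and stood close to, or above, the level of non-acclimated (NA) rosettes after only 2 h of warming. They were chosen from 16722 probe sets that the array platform assigns to a single gene. For each gene the gap was taken as the NA mean minus the CA mean, on the log2 scale of the deposited values, and it had to be at least 1. The 2 h mean minus the CA mean had to be at least 0.75 of that gap, and all 3 CA arrays had to lie below all 3 arrays of the 2 h group and all 3 NA arrays. Genes whose names start with CYP, UGT, GST, ABC, MYB, WRKY, NAC, HSP, HSF or PIF, and HOP3 and ROF2, were left out, which removed 3 genes that met every other condition (UGT74D1, HOP3 and ROF2). A further 605 genes had a gap of at least 1 under the same name rule but failed another condition, and they are called the other cold-repressed genes.

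Each of the 7 groups held 3 independent biological replicates, each a pool of rosettes from 10 wild-type plants on 1 array, 21 arrays in all. Plants were 4 weeks old, raised in 8 h days for 3 weeks and in 16 h days afterwards. CA plants then spent 3 d at 4 °C under 90 μmol of light per square metre and second. Deacclimated plants had the same cold treatment and were returned for 2, 4, 6, 12 or 24 h to 20 °C by day and 18 °C by night, under at least 200 μmol of light. NA plants never left those warm conditions. Temperature and light thus went up at once, and their parts cannot be told apart. The study places the transfer to warmth in the morning and its sampling in daylight, but no source used here gives the hour of harvest of each group. Hours of deacclimation and time of day therefore cannot be told apart either.

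Cold acclimation is the change that Arabidopsis and many other plants undergo over days of chilling above 0 °C, after which they survive frost better. It includes the build-up of protective sugars and proteins and the lowering of many transcripts that serve growth. Deacclimation is the reverse change, set off by warmth. A transcript that was low in the cold can regain its warm level through more synthesis, slower decay or both, and array levels do not separate these.

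The gap between NA and CA plants ran from 1.00 to 3.90 with a median of 1.32 over the 205 genes. After 2 h of deacclimation the same genes were 0.78 to 4.00 above CA plants, with a median of 1.48. The ratio of these differences, called here the share of the gap reached, had a median of 1.02 at 2 h, and 106 of the 205 genes stood at or above their NA level. These values chose the genes and are a description, with no test. Just inside the limit on the gap lay AT3G44440 (1.00) and SGT1A (1.00), and just outside it AT5G39030 (0.998) and TBL33 (0.998). Just inside the limit on the ratio lay AT1G02700 (0.751) and AT2G44380 (0.752), and just outside it AT1G72790 (0.748) and AT5G54300 (0.748). The genes on either side of both limits differed by very little.

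One array stood apart, replicate 1 of the 2 h group, with a median of 8.43 over the analysed probe sets against 8.11 to 8.29 on the other arrays. Without that array the rule gave 198 genes, of which 186 were among the 205. The rule was also applied with 1 replicate number left out, so that the left-out arrays of the CA, 2 h and NA groups gave values it had not used. Without replicate 1 it chose 229 genes, of which 215 were higher in both the 2 h and the NA array left out than in the CA array left out. Without replicate 2 this held for 232 of 258 genes, and without replicate 3 for 226 of 236 genes. A ratio of at least 0.75, which the rule asks for, was met in the left-out arrays by fewer genes, 183 of 229, 141 of 258 and 149 of 236. The median difference between 2 h and CA in the left-out arrays was 1.396 for replicate 1, 1.09 for replicate 2 and 1.26 for replicate 3, against 1.43, 1.48 and 1.39 in the arrays that chose the genes. Most genes thus kept their direction in the left-out arrays, but many did not reach the ratio, and the median difference was smaller there in each case. The matching share over all single-gene probe sets was not taken, so these counts are a description only.

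The 205 genes were expressed at middling levels. Their mean over the 4, 6, 12 and 24 h groups had a median of 8.18, with quartiles of 6.93 and 9.16, against a median of 7.51 and quartiles of 4.38 and 9.61 over all 16722 single-gene probe sets. Replicates of these genes spread more than those of the array as a whole, with a median SD of 0.321 against 0.242 after 2 h, of 0.230 against 0.149 after 12 h and of 0.311 against 0.203 after 24 h. Few of the genes carry a name: the platform gives a symbol other than the locus for 12 of the 205, and 57 have a name or a description in RefSeq or in the part of the study's annotation used here. That part was shortened: it gave most of its descriptions for chromosomes 1 and 2, where 48 of 86 genes had a name or description, against 9 of 119 elsewhere. The groups by role below are therefore examples and no census of the 205 genes, and the other loci are given by locus alone. The labelled tissue was checked against markers: the 3 leaf markers had group medians of 12.35 to 12.65, the 4 root markers 4.57 to 4.75 and the 2 flower markers 3.97 to 4.37, against 7.43 to 7.59 for all single-gene probe sets. Of the root markers 3 had group means of 3.90 to 4.91, but PYK10, a beta glucosidase of roots, was at 8.68 in CA plants, 8.96 after 2 h, 10.16 after 24 h and 10.69 in NA plants. Its gap was 2.01 and its 2 h mean was only 0.27 above its CA mean, both on the log2 scale. It is therefore not among the 205 genes, and its part in the results was not tested. Of the 202 genes that could be placed on the RefSeq annotation TAIR10.1, 68 overlap another annotated gene, 55 of them a protein-coding one. Signal of such a gene cannot be told apart from that of its partner where the strand a probe set reads is not known. Among the genes named here this holds for AT4G27450, AT4G33420, AT4G33666, AT5G56100, AT3G22275, AT5G25450, AT4G08690, AT3G45443, AT5G58540, AT2G40435, AGL29, bZIP70, AT1G14200, AT1G76700, AT2G20560, AT2G21430, AT1G65240, AT1G51620, AT1G33430, AT1G48430, AT1G15400, AT3G25013 and AT3G25014.

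At the later times the median of the 205 genes stayed near the NA level, while single genes lay well below or above it. The median share of the gap was 0.969 after 4 h, 0.940 after 6 h, 0.927 after 12 h and 0.988 after 24 h, where 0 is the CA level and 1 the NA level. Taken array by array the medians ran from 0.852 to 1.02 in the 4 h group, from 0.873 to 1.01 in the 6 h group, from 0.926 to 0.991 in the 12 h group and from 0.973 to 1.05 in the 24 h group. The other cold-repressed genes had medians of 0.401 after 2 h, 0.363 after 4 h, 0.324 after 6 h, 0.454 after 12 h and 0.832 after 24 h. The rule itself set the other cold-repressed genes apart at 2 h, where only 16 of the 605 had a share of at least 0.75. The contrast at 2 h was thus fixed by the choice of genes, and the later shares are not free of that choice. All these shares also rest on the CA and NA arrays that the rule used and are given without a test. All 12 arrays of the 4 to 24 h groups lay above all 3 CA arrays for 154 of the 205 genes (75.1%), against 225 of the 605 other cold-repressed genes (37.2%). The rule had already asked for CA arrays below the 2 h and NA arrays in the 205 genes, which the 605 need not meet. The counts are therefore not on an equal footing, and the share over all single-gene probe sets was not taken. A share of at least 0.75 at each of the times 4, 6, 12 and 24 h was kept by 104 of the 205 genes, and 37 were at or above the NA level at all of them. At the other end, 28 genes dropped under 0.5 at 4, 6 or 12 h and were back at 0.75 or more after 24 h, and 21 dropped under 0.5 and were still under 0.75 after 24 h.

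**Figure D1:**
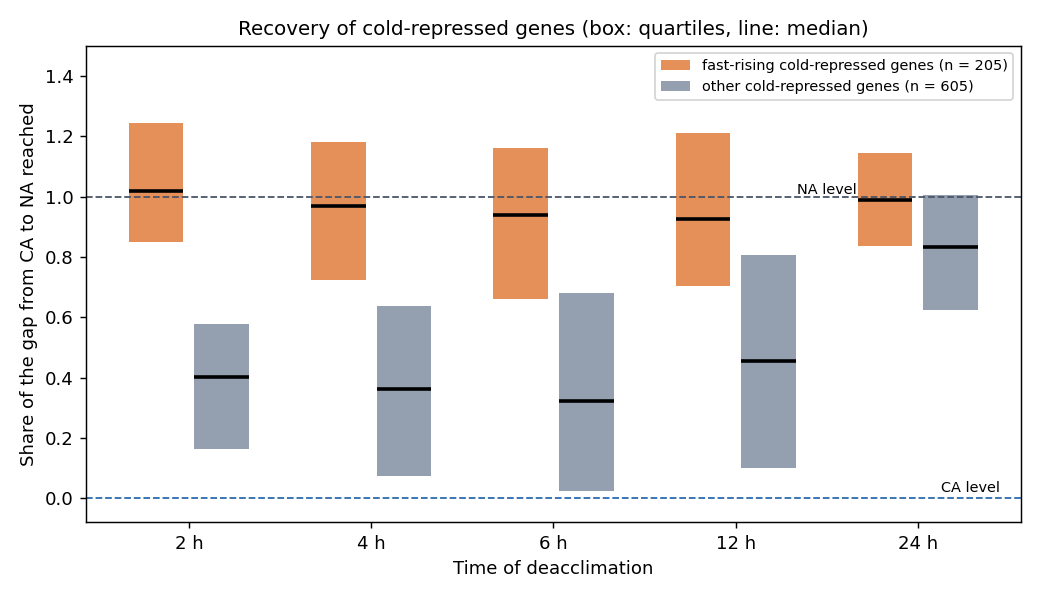
Share of the gap from CA (0) to NA (1) reached after 2, 4, 6, 12 and 24 h of deacclimation. The rule chose the 205 genes by this share at 2 h, so the contrast at 2 h was fixed by the choice of genes. Orange boxes stand for the 205 fast-rising genes and grey boxes for the 605 other cold-repressed genes, boxes span the quartiles over genes and black lines are medians: the orange medians lie between 0.927 and 1.02, the grey ones between 0.324 and 0.454 up to 12 h and at 0.832 at 24 h.

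The widest gap, 3.90, belonged to CSLA01 (AT4G16590), a cellulose synthase-like A protein of the family that makes mannans of the cell wall. Its log2 values were 5.05, 4.84 and 6.39 in CA plants, 7.65, 8.21 and 9.51 after 2 h, 8.83, 7.89 and 9.44 after 4 h, 8.81, 6.25 and 9.37 after 6 h, 10.09, 9.02 and 10.43 after 12 h, 9.16, 10.84 and 10.36 after 24 h and 8.24, 9.75 and 9.97 in NA plants. The NA arrays lay in the range of the arrays from 2 to 24 h, and 1 array of the 6 h group (6.25) fell among the CA arrays. AT4G33420 had a gap of 3.77, with 5.73, 5.52 and 5.50 in CA plants, 8.74, 8.83 and 8.71 after 2 h, 8.49, 8.39 and 8.29 after 4 h, 7.20, 7.44 and 7.68 after 6 h, 7.49, 7.84 and 6.94 after 12 h, 7.29, 9.07 and 7.03 after 24 h and 8.54, 9.82 and 9.71 in NA plants. Its arrays at 2 and 4 h were close together, those at 6 and 12 h were lower without reaching the CA arrays, and those at 24 h were uneven. AT3G28270, with a gap of 3.72, is described with the later changes. The means of AT5G52770, AT4G19430, AT4G23680, AT1G73325 and AT4G33666, with gaps of 3.65, 3.43, 3.29, 3.11 and 3.06, stood at shares of 0.84 to 1.396 at every time from 4 to 24 h. For AT1G73325 the 6 h arrays were 10.39, 6.83 and 9.41, so its level at that time was poorly fixed.

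**Figure D2:**
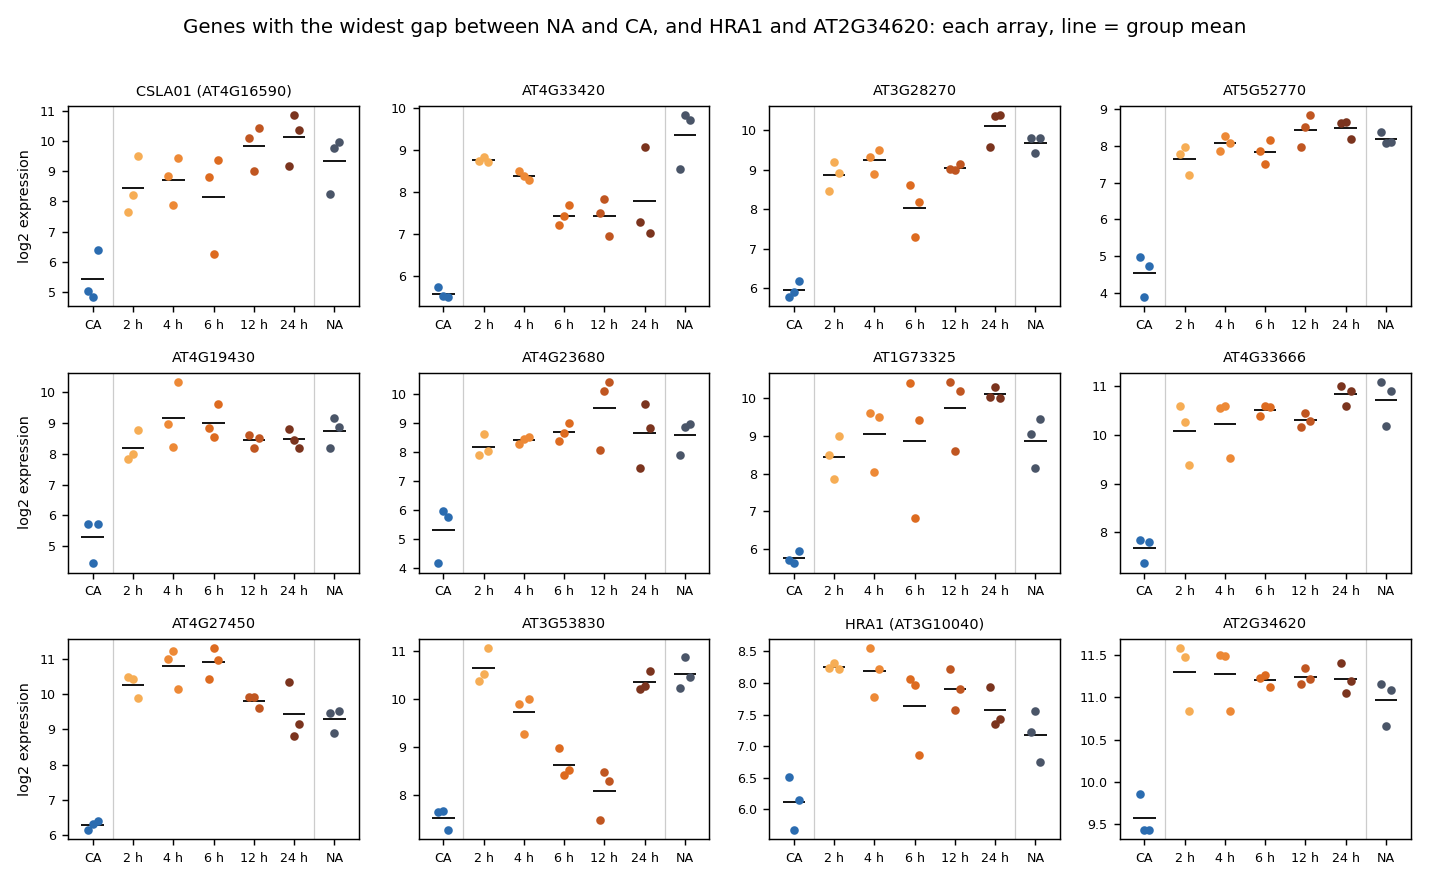
Log2 expression on each array (points) and group means (lines) for the 10 genes with the widest gap and for HRA1 and AT2G34620, with groups in the order CA, 2, 4, 6, 12 and 24 h, NA. In every panel the 3 CA arrays lie below the 2 h and NA arrays, as the rule required, and AT3G53830 comes down to a mean of 8.09 at 12 h, near its CA mean of 7.54.

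Several genes went past the NA level at 2 h. The highest ratios were 2.12 for AT1G07400, 2.01 for HRA1, 1.95 for AT1G59860, 1.87 for AT2G40435 and 1.82 for AT5G56100. HRA1 (HYPOXIA RESPONSE ATTENUATOR1, AT3G10040) is a transcription factor that restrains the response to oxygen shortage. Its values were 6.51, 5.67 and 6.14 in CA plants, 8.24, 8.31 and 8.22 after 2 h, 8.55, 7.79 and 8.23 after 4 h, 8.06, 7.96 and 6.86 after 6 h, 8.22, 7.58 and 7.91 after 12 h, 7.93, 7.36 and 7.43 after 24 h and 7.23, 7.56 and 6.75 in NA plants. Every array of the 2, 4 and 12 h groups lay above all 3 NA arrays, while 6 h and 24 h arrays overlapped them. AT1G07400 had 6.35, 5.99 and 6.78 in CA plants, 9.02, 9.10 and 10.24 after 2 h, 8.47, 7.38 and 8.76 after 4 h, 6.92, 6.93 and 6.74 after 6 h, 6.19, 7.28 and 7.71 after 12 h, 7.79, 6.65 and 6.97 after 24 h and 8.27, 7.43 and 7.78 in NA plants. Its 2 h arrays were above all others, and arrays of the 6, 12 and 24 h groups overlapped the CA arrays. AT1G59860 had means of 8.23 ± 0.61 after 2 h, 7.06 ± 1.06 after 4 h and 5.91 ± 0.36 after 6 h, against 6.95 ± 0.44 in NA plants (SD, n = 3 each). AT2G40435, annotated as a regulator of transcription, was at 9.30 ± 0.57 at 2 h and at means of 8.28 to 8.58 from 4 to 24 h, against 8.36 ± 0.05 in NA plants (SD, n = 3 each).

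Among the genes with a description 6 were chaperones or co-chaperones that the rule on names had not left out. Genes without a description, among them AT1G07400 and AT1G59860 with their high ratios at 2 h, could not be sorted by role, so further chaperones may be among the 205. The list of other chaperones, matched by name, had 12 measured genes and held 0 of the 205. Small heat shock proteins keep unfolding proteins soluble, and DNAJ proteins hand such clients to Hsp70. AT2G19310, described as similar to HSP18.2, had 7.48, 6.96 and 8.08 in CA plants, 10.22, 10.54 and 11.10 after 2 h, 10.53, 9.94 and 10.98 after 4 h, 10.35, 9.89 and 10.32 after 6 h, 10.49, 10.60 and 10.71 after 12 h, 10.22, 10.02 and 10.52 after 24 h and 9.95, 9.72 and 10.35 in NA plants. All its arrays outside the cold lay well above the CA arrays, at shares of the gap between 1.07 and 1.24. AT2G29500, a class I small heat shock protein, had means of 9.53 ± 0.26 in CA plants, 10.57 ± 0.21 after 2 h, 11.08 ± 0.17 after 12 h and 10.72 ± 0.34 in NA plants (SD, n = 3 each). AT1G54050, of class III, was at 10.16 ± 0.13 after 2 h, 9.09 ± 0.29 after 6 h and 9.64 ± 0.41 after 24 h, against 9.69 ± 0.33 in NA plants.

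Both DNAJ genes came back towards the CA level for some hours. AT2G20560 had 5.77, 5.68 and 5.95 in CA plants, 7.35, 7.47 and 7.95 after 2 h, 7.69, 6.69 and 7.64 after 4 h, 6.78, 6.34 and 5.73 after 6 h, 5.76, 6.63 and 6.44 after 12 h, 6.71, 6.99 and 6.58 after 24 h and 6.86, 7.09 and 7.29 in NA plants. Arrays of the 6 and 12 h groups overlapped the CA arrays, and the 4 h arrays did not. AT1G76700 had 7.55, 7.25 and 7.69 in CA plants, 8.48, 8.42 and 8.55 after 2 h, 7.96, 7.48 and 7.26 after 4 h, 8.04, 7.63 and 7.68 after 6 h, 8.19, 8.42 and 8.33 after 12 h, 8.17, 8.86 and 8.08 after 24 h and 8.16, 8.93 and 8.95 in NA plants. Here it was the 4 and 6 h arrays that overlapped the CA arrays. SGT1A, a co-chaperone of Hsp90 that also serves ubiquitin ligases and disease resistance, had a share of the gap of 0.95 after 2 h, 0.53 after 4 h, 0.11 after 6 h, 0.32 after 12 h and 0.75 after 24 h. None of these 6 genes was called between later times in the tests below, so the courses are given as values.

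**Figure D3:**
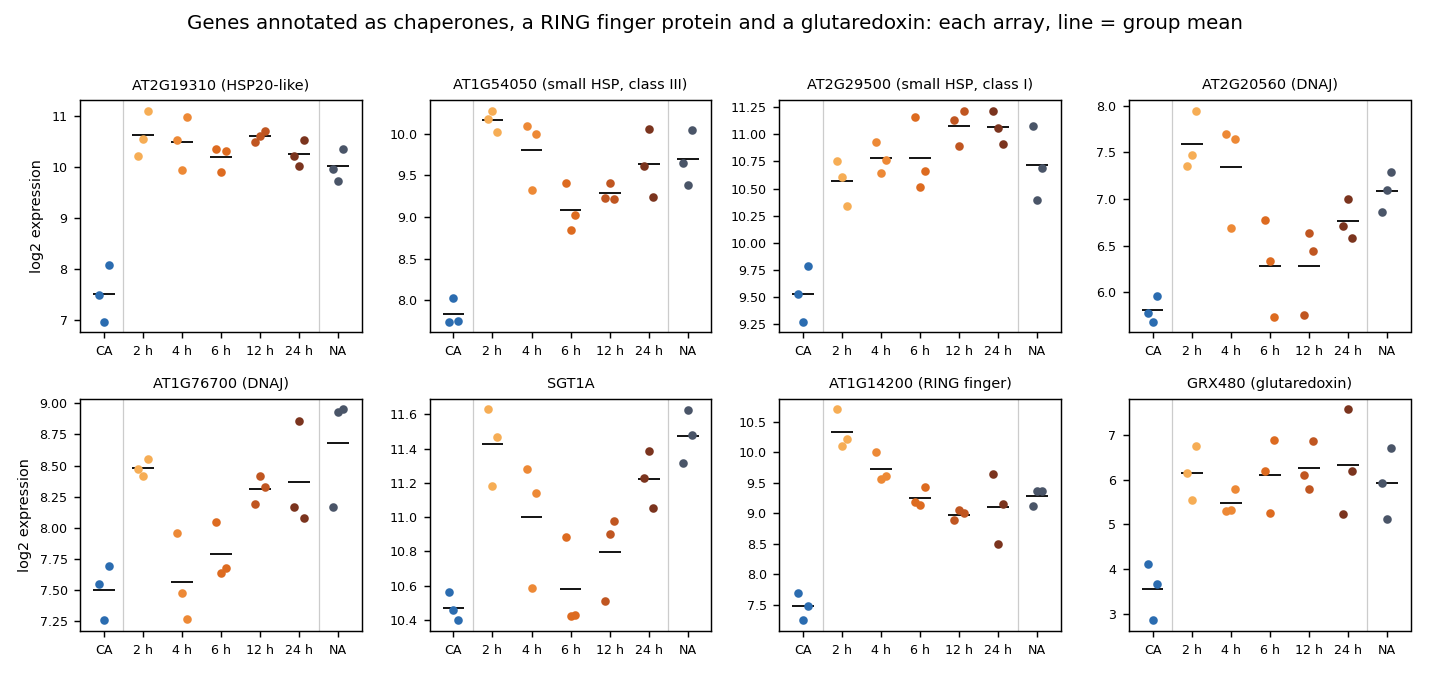
Log2 expression on each array (points) and group means (lines) for 8 genes of the groups described by role, with groups in the order CA, 2, 4, 6, 12 and 24 h, NA. AT2G19310 and AT2G29500 stay above their NA means of 10.01 and 10.72 from 4 h onwards, whereas SGT1A is at a mean of 10.58 at 6 h, close to its CA mean of 10.47.

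Proteins of the ubiquitin pathway, which marks other proteins for degradation, were represented by AT1G14200 (RING finger), AT2G45920 (U-box) and AT1G23390 (F-box with kelch repeats). All of them exceeded the NA level at 2 h, with ratios of 1.58, 1.34 and 1.77. AT1G14200 had means of 7.48 ± 0.23 in CA plants, 10.34 ± 0.32 after 2 h, 9.73 ± 0.25 after 4 h, 9.26 ± 0.15 after 6 h, 8.98 ± 0.09 after 12 h, 9.10 ± 0.57 after 24 h and 9.29 ± 0.14 in NA plants. Its 2 h arrays were the highest of all, and its 12 h arrays lay just below the NA arrays. AT2G45920 had a share of the gap between 0.85 and 1.05 from 4 to 24 h.

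The genes annotated as regulators of transcription were HRA1, AT2G40435, the MADS-box gene AGL29, the basic leucine zipper gene bZIP70 and the basic helix-loop-helix genes AT3G61950 and AT4G00870. Their gaps were narrow, from 1.07 to 1.25. AGL29 had 6.64, 6.35 and 6.76 after 2 h, 5.95, 5.48 and 6.20 after 12 h and 6.49, 6.45 and 7.50 after 24 h, against 6.50, 6.98 and 7.02 in NA plants. Its 12 h arrays overlapped its CA arrays (5.35, 5.48 and 5.99). The highest means of AT3G61950 and AT4G00870 were those at 12 h (8.68 and 7.63), and all 12 h arrays of both lay above their NA arrays. For bZIP70 the 4 h arrays spread from 4.86 to 6.66 around a mean that was within 0.08 of those at 6, 12 and 24 h.

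The genes of redox control were GRX480, a glutaredoxin that binds TGA transcription factors, and MSRB9, a methionine sulfoxide reductase, which repairs oxidised methionine. GRX480 had 4.12, 2.87 and 3.67 in CA plants, 6.15, 5.54 and 6.76 after 2 h, 5.30, 5.32 and 5.79 after 4 h, 6.19, 5.26 and 6.87 after 6 h, 6.09, 5.79 and 6.85 after 12 h, 5.23, 7.56 and 6.18 after 24 h and 5.92, 5.12 and 6.70 in NA plants. All arrays outside the cold were above the CA arrays, and the groups from 2 h to NA overlapped. MSRB9 had means of 6.94 ± 0.16 in CA plants, 8.77 ± 0.60 after 2 h, 8.80 ± 0.32 after 24 h and 8.36 ± 0.30 in NA plants. Its share of the gap was lowest at 4 h, at 0.96.

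The 2-oxoglutarate dependent dioxygenases are a large family whose members modify hormones and secondary metabolites. AT1G06620 went past the NA level at 2 h (ratio 1.60) and had shares of the gap from 1.22 to 1.38 afterwards. AT1G78550 had shares of 1.05 to 1.32. AT1G06640 was below the NA mean at each time, with shares of 0.60 to 0.94. Enzymes of carbohydrates and the wall other than CSLA01 were BGLU40, a beta glucosidase, AT1G10050, a glycosyl hydrolase, and AT1G33430, a galactosyltransferase, with AT1G62760 described as an inhibitor of invertase or pectin methylesterase. BGLU40 had 10.57, 10.29 and 10.27 in CA plants, 11.86, 11.55 and 11.65 after 2 h, 11.54, 11.22 and 11.42 after 4 h, 11.40, 11.03 and 11.10 after 6 h, 11.25, 11.59 and 11.68 after 12 h, 12.20, 12.22 and 12.10 after 24 h and 12.17, 12.09 and 12.06 in NA plants. Its 24 h and NA arrays overlapped, and both were above all arrays of 2 to 12 h. The other enzymes were within 0.83 to 1.23 of their gap from 4 to 24 h, as was the inhibitor.

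Among enzymes of small molecules, AT2G32150, a hydrolase of the haloacid dehalogenase type, had the widest gap, 2.21, and shares of 0.98 to 1.29 from 4 to 24 h. The dihydroxyacetone kinase AT1G48430 had means of 7.87 ± 0.06 in CA plants, 8.95 ± 0.08 after 2 h, 9.54 ± 0.12 after 12 h and 8.98 ± 0.06 in NA plants, with all 12 h arrays above all NA arrays. AT2G16790, of the shikimate kinase family, reached a share of 1.91 after 6 h and was at 0.71 after 24 h. AT2G21550, described as a dihydrofolate reductase and thymidylate synthase, which serves nucleotide synthesis, moved between 0.72 after 4 h and 1.02 after 24 h. LEA27 (AT2G46140) is a late embryogenesis abundant protein, of a family known for protection during drying. It had 6.19 ± 0.09 in CA plants, 7.33 ± 0.38 after 2 h, 8.02 ± 0.18 after 12 h and 7.45 ± 0.36 in NA plants.

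Protein kinases and proteases included genes whose means were lower after 6 h than after 2 h. None of these kinases and proteases was called between later times in the tests below. The rule had chosen them on high 2 h values, so the courses are given as values. The S-locus lectin kinase AT1G61610 had a share of the gap of 1.15 after 2 h, 0.28 after 6 h and 1.33 after 24 h, with 6 h arrays of 7.51, 5.19 and 6.37. The kinase AT1G51620 had 0.95, 0.29 and 0.84 at the same times. The aspartyl protease AT1G65240 had 4.86, 4.79 and 4.98 in CA plants, 7.55, 7.46 and 7.40 after 2 h, 7.07, 5.62 and 6.45 after 4 h, 5.40, 5.03 and 5.46 after 6 h, 6.41, 6.46 and 5.40 after 12 h, 5.91, 7.33 and 5.76 after 24 h and 6.57, 7.58 and 6.86 in NA plants. Its 6 h arrays were just above the CA arrays and below all arrays of 2 h. The 12 h arrays overlapped the 6 h arrays, and the 24 h arrays lay between those of 6 h and 2 h. The cysteine protease AT2G21430 had shares of 0.85 to 1.38 from 4 to 24 h. AT2G05160, with a CCCH zinc finger and an RNA recognition motif, was above the NA mean throughout, at shares of 1.16 to 1.54.

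Whether these genes moved again after their early increase was tested by setting the 4, 6, 12 and 24 h groups, whose values the rule had not used, against each other in limma. The spread behind the p-values came from all 21 arrays, 9 of which the rule had used. A change counted as called with an adjusted p (Benjamini-Hochberg) under 0.05 and a size over 1 on the log2 scale. The p-values measure the spread between pooled samples. In all, 14 of the 205 genes (6.83%) were called in at least 1 of the 4 comparisons. The matching share of all probe sets was not taken, so this count is not read as a trait of the 205 genes. Between 6 h and 4 h limma called 0 genes in either direction, beside 0.0287% higher and 0.0192% lower of the 31329 probe sets tested, and 22 of the 205 genes (10.7%) had an unadjusted p under 0.05, against 5.21% of all probe sets. That share was 23.4% against 13.6% between 12 h and 6 h, 21.5% against 19.7% between 24 h and 12 h and 22.9% against 29.2% between 24 h and 4 h. Between 12 h and 6 h 1 gene was higher (0.488%, against 0.201% of all probe sets) and 1 lower (0.488%, against 0.316%). Between 24 h and 12 h 3 genes were higher (1.46%, against 1.59%) and 1 lower (0.488%, against 1.02%). Between 24 h and 4 h 4 genes were higher (1.95%, against 2.51%) and 5 lower (2.44%, against 1.86%). The shares for 24 h thus lay near those of all probe sets. With the spread taken from the 12 arrays of the 4 to 24 h groups alone, an alternative chosen after seeing the data, the 4 comparisons had 0, 0, 3 and 7 called genes. The calls lost were those of AT3G22235 (limma adjusted p = 0.115) and AT5G56100 (0.0527) between 12 h and 6 h, of AT3G28270 (0.0850) between 24 h and 12 h, and of AT1G65486 (0.0590) and P1R3 (0.0504) between 24 h and 4 h. Of the 605 other cold-repressed genes 16 were higher and 1 lower between 12 h and 6 h, 75 and 0 between 24 h and 12 h, and 166 and 2 between 24 h and 4 h. Nearly all of the 605 were set apart by a low share of the gap at 2 h. A later rise was thus partly built into their choice, and their counts are not on an equal footing with those of the 205 genes.

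The median change between 24 h and 4 h was 0.07 on the log2 scale over the 205 genes, with quartiles of -0.27 and 0.38, against 0.67 over the other cold-repressed genes and -0.04 over all probe sets tested. The contrast with the other cold-repressed genes is not free of the rule, which set most of them apart by a low share of the gap at 2 h. The standard error of a change had a median of 0.27 over the 205 genes. The group means from 4 to 24 h differed by less than 0.5 for 67 genes, by 0.5 to 1 for 95 and by 1 or more for 43. The highest of these means fell after 24 h for 73 genes, after 12 h for 54, after 4 h for 48 and after 6 h for 30. The genes thus had no common high point.

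**Figure D4:**
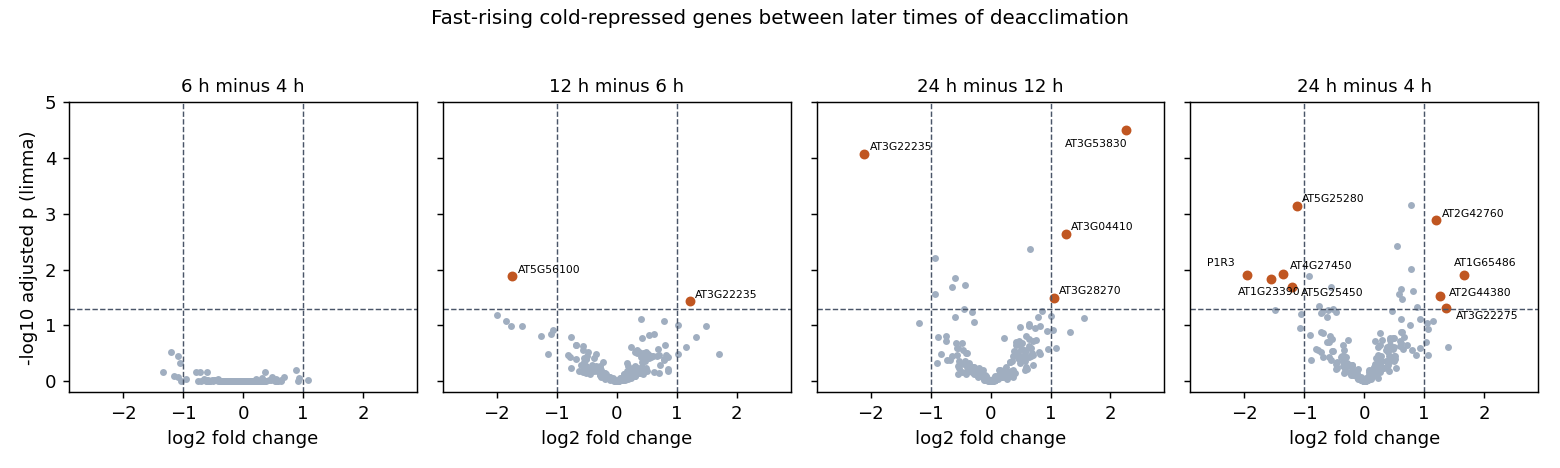
Change of each of the 205 genes between later times of deacclimation (log2, horizontal axis) against -log10 of the adjusted p of limma (vertical axis), 1 panel per comparison. Dashed lines mark a change of 1 and an adjusted p of 0.05, and brown points are the called genes: 0 in 6 h minus 4 h, 2 in 12 h minus 6 h, 4 in 24 h minus 12 h and 9 in 24 h minus 4 h.

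AT3G53830 came back close to the CA level and rose again. It had 7.65, 7.67 and 7.28 in CA plants, 10.36, 10.51 and 11.05 after 2 h, 9.90, 9.28 and 9.99 after 4 h, 8.98, 8.41 and 8.52 after 6 h, 7.48, 8.49 and 8.30 after 12 h, 10.21, 10.26 and 10.57 after 24 h and 10.22, 10.87 and 10.45 in NA plants. Arrays of 12 h overlapped those of CA plants, and arrays of 24 h lay with those of NA plants. The mean after 24 h was higher than after 12 h by 2.26 ± 0.27 (SE, limma adjusted p = 3.18e-05), a call kept under all alternatives tried. AT3G22235 ran the other way, with 7.24, 7.01 and 7.51 in CA plants, 9.53, 8.97 and 9.52 after 2 h, 8.94, 9.42 and 9.44 after 4 h, 10.44, 9.41 and 10.58 after 6 h, 11.47, 11.14 and 11.48 after 12 h, 9.001, 9.61 and 9.17 after 24 h and 8.89, 8.29 and 8.42 in NA plants. Its 12 h arrays were the highest of all 21, at a share of the gap of 3.21, the highest among the 205 genes at that time. It was higher after 12 h than after 6 h by 1.22 ± 0.27 (limma adjusted p = 0.0368), a call lost without replicate 2 of 6 h (adjusted p = 0.156) and without replicate 1, 2 or 3 of 12 h (0.127, 0.0710 and 0.147), and also over the whole table (0.0547) or with only the 6 arrays compared (0.186). At 24 h it fell by 2.103 ± 0.27 relative to 12 h (limma adjusted p = 8.34e-05), a call kept under all alternatives tried.

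AT3G04410 had 6.62, 6.78 and 6.44 after 24 h and 5.64, 4.94 and 5.49 after 12 h. It rose by 1.26 ± 0.23 (limma adjusted p = 0.00225), also under all alternatives that included it. The alternative that dropped the probe sets of lowest mean level left out AT3G04410, P1R3, AT2G44380 and AT3G22275, so their calls were not tried there. AT3G28270 had 5.78, 5.91 and 6.18 in CA plants, 8.46, 9.19 and 8.92 after 2 h, 9.31, 8.90 and 9.49 after 4 h, 8.62, 7.29 and 8.18 after 6 h, 9.01, 8.996 and 9.14 after 12 h, 9.58, 10.37 and 10.37 after 24 h and 9.81, 9.43 and 9.81 in NA plants. Its 24 h arrays were above all 12 h arrays, by 1.06 ± 0.29 (limma adjusted p = 0.0321). That call was lost without replicate 1, 2 or 3 of 12 h (adjusted p = 0.0891, 0.0975 and 0.0716) or replicate 2 or 3 of 24 h (0.124 and 0.119). AT5G56100 had 6.18, 6.85 and 6.70 after 12 h and 7.93, 8.53 and 8.49 after 6 h, and fell by 1.75 ± 0.32 (limma adjusted p = 0.0133). It lost the call without replicate 2 or 3 of 6 h (adjusted p = 0.0699 and 0.0760) or replicate 1 of 12 h (0.0645). At 2 h it had stood at 8.01, 7.83 and 7.21, against 6.78, 6.01 and 6.54 in NA plants, with no overlap.

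Lower after 24 h than after 4 h were 5 genes. AT5G25280 had 9.59, 9.58 and 9.49 after 24 h, against 10.93, 10.91 and 10.20 after 4 h, and fell by 1.13 ± 0.19 (limma adjusted p = 0.000719), which was called under all alternatives tried. P1R3 (AT3G29370) had 4.52, 6.14 and 4.43 after 24 h and 6.77, 7.94 and 6.27 after 4 h and fell by 1.96 ± 0.50 (limma adjusted p = 0.0125), with no overlap. AT1G23390, the kelch F-box gene, had 9.15, 7.85 and 8.17 after 24 h and 10.08, 10.72 and 9.05 after 4 h and fell by 1.56 ± 0.41 (limma adjusted p = 0.0145), although the arrays overlapped. These were among the genes highest at 6 h, with a 6 h mean of 7.27 for P1R3 and of 10.32 for AT1G23390. AT4G27450 fell by 1.36 ± 0.35 (limma adjusted p = 0.0120), with 10.36, 8.81 and 9.16 after 24 h and 11.01, 11.24 and 10.16 after 4 h, and its arrays overlapped too. AT5G25450 had 5.86, 5.70 and 5.84 after 24 h and 7.41, 6.30 and 7.29 after 4 h, with no overlap, and fell by 1.20 ± 0.34 (limma adjusted p = 0.0209). These 5 genes had stood at shares of the gap between 1.17 and 2.16 after 4 h and were between 0.62 and 1.05 after 24 h. Without replicate 2 of 4 h the calls of P1R3, AT1G23390 and AT4G27450 were lost (limma adjusted p = 0.0738, 0.0835 and 0.0625), and without replicate 2 of 24 h those of AT1G23390, AT4G27450 and AT5G25450 (0.0736, 0.0695 and 0.0661). Without replicate 3 of 24 h P1R3, AT1G23390, AT4G27450 and AT5G25450 missed the threshold (limma adjusted p = 0.0625, 0.0545, 0.0529 and 0.0510), as AT5G25450 did without replicate 1 or 3 of 4 h (0.0949 and 0.0820).

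Higher after 24 h than after 4 h were 4 genes. Each had a lower mean after 4 h than after 2 h, but the rule had chosen them on high 2 h values, so nothing is read from that fall. AT1G65486 had 8.11, 9.30 and 7.47 after 24 h and 7.21, 5.89 and 6.78 after 4 h (1.67 ± 0.43, limma adjusted p = 0.0124), after 8.18, 7.97 and 8.23 after 2 h. AT2G42760 had 9.32, 10.05 and 9.42 after 24 h and 8.64, 8.09 and 8.45 after 4 h (1.20 ± 0.22, limma adjusted p = 0.00130). Arrays of 24 h and 4 h did not overlap for either gene. AT2G44380 had 5.84, 5.21 and 6.53 after 24 h and 4.37, 5.07 and 4.36 after 4 h (1.26 ± 0.38, limma adjusted p = 0.0302), and AT3G22275 had 4.36, 5.63 and 5.28 after 24 h and 3.54, 3.84 and 3.77 after 4 h (1.37 ± 0.46, limma adjusted p = 0.0495), again without overlap. The call of AT1G65486 was lost without replicate 2 of 4 h (limma adjusted p = 0.0717) or of 24 h (0.0728), and that of AT2G42760 without replicate 2 of 24 h, where the change was 0.98. AT2G44380 lost it without replicate 1 or 3 of 4 h (limma adjusted p = 0.0985 and 0.0994) or of 24 h (0.0586 and 0.147). AT3G22275 lost it without replicate 1, 2 or 3 of 4 h (limma adjusted p = 0.130, 0.0916 and 0.0975) or replicate 2 or 3 of 24 h (0.186 and 0.132), and also over the whole table (0.0656) or the single-gene probe sets alone (0.0509).

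**Figure D5:**
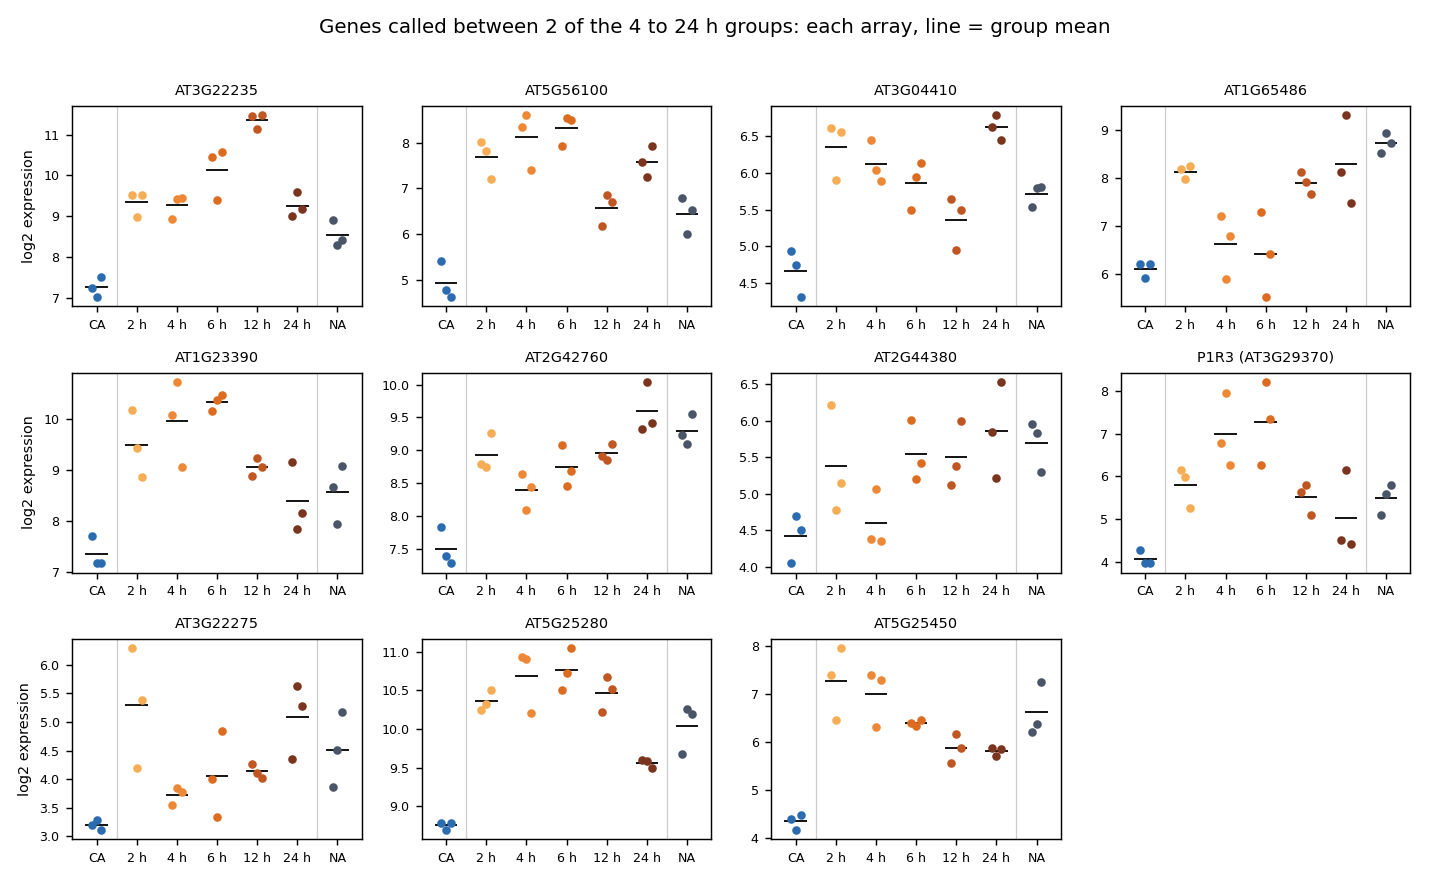
Log2 expression on each array (points) and group means (lines) for 11 of the 14 genes called between later times, with groups in the order CA, 2, 4, 6, 12 and 24 h, NA. AT3G22235 peaks after 12 h at a mean of 11.36, P1R3 and AT1G23390 are highest after 6 h at means of 7.27 and 10.32, and AT5G25280 is lower after 24 h (9.55) than after 4 h (10.68).

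At the other extreme were genes that moved once and then kept still. AT2G34620, described as related to mitochondrial transcription termination factors, had 9.85, 9.43 and 9.43 in CA plants, 11.59, 11.49 and 10.84 after 2 h, 11.51, 11.50 and 10.84 after 4 h, 11.23, 11.26 and 11.13 after 6 h, 11.16, 11.35 and 11.22 after 12 h, 11.41, 11.05 and 11.20 after 24 h and 11.16, 10.66 and 11.09 in NA plants. Its means from 2 to 24 h differed by no more than 0.10, less than the SD between its replicates at 2 h (0.40). AT4G08690, AT4G25707, AT3G45443 and AT5G58540 had means from 2 to 24 h that differed by 0.11 to 0.15. AT3G45443 had nearly equal CA arrays (9.27, 9.28 and 9.30) and means of 10.36 to 10.49 at all times from 2 to 24 h, against 10.33 ± 0.16 in NA plants.

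Of 32 gene lists drawn up by function, holding 480 single-gene probe sets, 5 contained any of the 205 genes and 6 genes were placed: AT4G27450, HRA1, GRX480, BGLU40, AGL29 and bZIP70. Lists were matched by gene names or their stems, from the platform and from RefSeq, and most of the 205 genes have no name in either. The platform gives 193 of them a locus only. Further, 4 lists had no measured gene, and the cell wall list did not take CSLA01. The small number placed therefore says little about the functions of the 205 genes. AT4G27450 belongs to a list of 7 measured transcripts known to build up when sugar or energy is short. Its values were 6.15, 6.30 and 6.38 in CA plants, 10.50, 10.43 and 9.88 after 2 h, 11.01, 11.24 and 10.16 after 4 h, 10.43, 11.32 and 10.98 after 6 h, 9.93, 9.91 and 9.61 after 12 h, 10.36, 8.81 and 9.16 after 24 h and 9.48, 8.91 and 9.53 in NA plants. The arrays of 2 to 12 h were all above the NA arrays. Of that list 3 of 7 genes were lower (42.9%, against 1.86% of all probe sets) and 0 higher between 24 h and 4 h, namely AT4G27450, AT3G15450 (fell by 1.82, limma adjusted p = 0.0182) and AKINBETA1, a subunit of the energy-sensing SnRK1 kinase (fell by 1.16, limma adjusted p = 0.00959). The median change of the list was -0.30, beside -0.04 over all probe sets tested. AT3G15450 and AKINBETA1 had gaps of only -0.03 and 0.24, so neither was low in the cold.

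In the list of 3 hypoxia genes HRA1 alone had a positive gap, while PDC2, a pyruvate decarboxylase of fermentation, had one of -1.49. None of the 3 was called in the 4 later comparisons, and the median changes lay between -0.33 and 0.26. None of the 13 redox genes was called either, with median changes between -0.05 and 0.11, and 2 of them (15.4%) had a gap of at least 1, GRX480 and AT2G41480, against 4.90% of all single-gene probe sets. The list for glucosinolates held 27 genes, most of them beta glucosidases of the BGLU family, through which it takes BGLU40. Of these 27 genes 4 had a gap of at least 1 (14.8%), namely BGLU40, PYK10, BGLU47 and AOP1. Lower after 24 h than after 12 h was 1 gene, BGLU28 (3.70%, against 1.02% of all probe sets). The counts thus describe beta glucosidases more than glucosinolate genes. Of 123 genes of other transcription factor families 8 had a gap of at least 1 (6.50%), and between 24 h and 4 h 6 were higher (4.88%, against 2.51% of all probe sets) and 4 lower (3.25%, against 1.86%), with a median change of 0.05.

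Similar and neighbouring genes were present in pairs. AT2G20670 and AT4G32480, described as similar to each other, had gaps of 1.26 and 2.51. At 12 h AT2G20670 had 7.32, 7.98 and 7.56, on both sides of its CA arrays (7.67, 7.69 and 7.80), and AT4G32480 had 9.79, 10.32 and 10.17, above its CA arrays (8.48, 7.95 and 8.32). AT1G15400 and AT1G80180, also described as alike, had shares of 0.92 to 1.295 and of 1.21 to 1.67 from 4 to 24 h. On the RefSeq annotation 3 pairs of the 205 genes were direct neighbours: AT1G76700 and AT1G76705, AT3G25013 and AT3G25014, and AT5G25440 and AT5G25450. AT3G25013 and AT3G25014 overlap each other, and their means were 8.89 and 8.49 after 2 h and 8.54 and 8.37 after 24 h. AT5G25440 and AT5G25450 had shares of 0.48 and 1.17 at 4 h.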

How the data were processed

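RNA of 21 rosette pools was hybridised by the authors to Affymetrix Arabidopsis Gene 1.0 ST arrays. The deposited table holds log2 expression per probe set after RMA, which the authors ran in RobiNA (version not stated in the sources used here). RMA corrects background, gives all arrays nearly 1 distribution and summarises probes, so a shift common to most transcripts would not be seen. The 3 arrays per group limit the precision. Of 38408 probe sets, 7079 that stand at the head of the table and have no entry in the platform's gene table were set apart, and 31329 were analysed. The gene table lists 17481, of which 16722 have 1 gene. The rule was applied with Python 3.11.15 and pandas 2.3.3, and names were also matched to RefSeq symbols and synonyms.

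Later times were compared with limma 3.58.1 (lmFit, eBayes) under R 4.3.3. All 21 arrays entered 1 model with 14 residual and 2.69 prior degrees of freedom, and p-values were adjusted over the 31329 probe sets. The procedure was tested on simulated data. Differences that share arrays with the rule (CA, 2 h and NA) received no test. Alternatives were cyclic loess scaling, other sets of probe sets or arrays, a replicate block, eBayes with trend and robust settings, no fold threshold, other limits of the rule and leaving out single arrays.

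The genes and lists were chosen with earlier results of these data known. Named genes are the 10 widest gaps, the 5 highest ratios, those nearest the limits, up to 6 called changes each way per comparison without overlap of arrays, the 5 steadiest, up to 4 per list and those the paper names. AT1G23390 and the genes described only by role, as similar or as neighbours were chosen after their values were seen. Roles come from RefSeq names and the study's annotation. Promoter motifs were not analysed here.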

Additional observations from a re-analysis of the deposited data

Results flagged for a closer look

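Between 2 later times of deacclimation, 14 of the 205 genes stood at different levels by the limma test of that difference, and each such difference is given once. The shares of all probe sets called are given above for each comparison, and none was taken for this count. Between 12 h and 6 h AT3G22235 changed by 1.22 and AT5G56100 by -1.75. Between 24 h and 12 h AT3G53830 changed by 2.26, AT3G04410 by 1.26, AT3G28270 by 1.06 and AT3G22235 by -2.103. Between 24 h and 4 h AT1G65486 changed by 1.67, AT3G22275 by 1.37, AT2G44380 by 1.26 and AT2G42760 by 1.20, whereas P1R3 changed by -1.96, AT1G23390 by -1.56, AT4G27450 by -1.36, AT5G25450 by -1.20 and AT5G25280 by -1.13, all on the log2 scale with 3 arrays per group. Time of day and hours of deacclimation cannot be told apart in these differences. Since each group has 3 arrays, values of single genes were not tested for an outlying array within a group.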

How the results depend on the processing

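The count of 205 genes depended on the limits: a ratio of 0.5 gave 368 genes, a ratio of 1 gave 106 and a gap of 1.5 gave 64, while leaving out single CA, 2 h or NA arrays gave 198 to 243. The median share of the gap then ran from 0.922 to 0.977 at 4 h, from 0.871 to 0.951 at 6 h, from 0.871 to 0.974 at 12 h and from 0.941 to 1.00 at 24 h. Between 12 h and 6 h the 2 called genes became 1 with the whole table, 0 with only the 6 arrays compared and 0 to 7 without single arrays, with 0 without replicate 2 of 6 h or replicate 1 of 12 h, 1 without replicate 3 of 6 h or replicate 2 or 3 of 12 h and 7 without replicate 1 of 6 h. From 12 h to 24 h the 4 called genes became 10 with no fold threshold and 3 to 6 without single arrays. Between 24 h and 4 h the 9 called genes became 2 with only the 6 arrays compared, 20 with no fold threshold and 4 to 15 without single arrays, with 4 without replicate 2 or 3 of 24 h and 15 without replicate 3 of 4 h. Between 6 h and 4 h the count was 0 throughout. The causes were not tested, except that fewer arrays leave fewer degrees of freedom. With only the 6 arrays compared, the calls kept were those of AT3G53830, AT3G04410 and AT3G22235 between 24 h and 12 h and of AT5G25280 and AT2G42760 between 24 h and 4 h. For single called genes 181 of 236 alternative values kept the call, and none of the 55 others changed direction. The values without a fold threshold are among the 181, although dropping that threshold cannot lose a call. Over all probe sets, dropping the fold threshold moved the calls from 499 higher and 318 lower to 1161 and 1215 between 24 h and 12 h, and from 787 and 583 to 2089 and 3268 between 24 h and 4 h, and with only the 6 arrays compared they were 0 and 0 between 12 h and 6 h. Without replicate 1 of 2 h the counts of the 205 genes called were 0, 2, 4 and 9, and with only the 12 arrays of 4 to 24 h they were 0, 0, 3 and 7, both chosen after seeing the data. The groups share replicate numbers, and the study describes 3 independent experiments, but no source used here says that an array's number names its experiment. Deviations of same-numbered samples correlated at 0.012 to 0.353 over 18 pairs, 13 of them over 0.1, and each of 12 samples correlated best with its own number, a hint from the data. With the replicate block the counts were 0, 4, 4 and 10, and the call of AT3G22275 was lost (limma adjusted p = 0.0502).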
